A study of Homo sapiens with 15 samples.

Results

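The genes described here are 10 regulators of the passage from G1 into S phase, chosen by name and found by their Ensembl identifiers among the 60721 identifiers of the count table. They are the D-type cyclins CCND1, CCND2 and CCND3, their partner kinases CDK4 and CDK6, the E-type cyclins CCNE1 and CCNE2 with their kinase CDK2, the pocket protein RB1, and the transcription factor E2F1. The rule that picks them uses no measured value. All 10 passed the filter on low counts, which left 17457 genes, and their lowest count in any library was 199, for CCND2.

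Poly(A) RNA was sequenced from MCF10 cells, human breast epithelial cells that do not form tumours, in 15 libraries of 5 genotypes with 3 biological replicates each. The unedited controls were Parental cells and cells with an Empty vector, and the 3 NF1 mutant genotypes were labelled Guide 1, Guide 2, and Guide 1 and 2 after the guide RNAs used; these are called edited below. All groups received no treatment and grew in the same medium, which contains horse serum, EGF, insulin, hydrocortisone and cholera toxin. The labels do not say whether a genotype is a single clone or a pool, nor whether replicates were separate lines or cultures. The p-values thus measure only the spread between these libraries, which may be smaller than that between independently edited lines.

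Growth factor signals that pass through RAS and the MAPK kinases are known to raise cyclin D, which activates CDK4 and CDK6. These kinases phosphorylate RB1, the phosphorylated protein releases E2F factors, and E2F factors drive the genes of DNA replication as well as the E-type cyclins and E2F1 itself. Cyclin E with CDK2 completes the phosphorylation of RB1. NF1 encodes neurofibromin, which lowers RAS activity. Most control of this switch acts on protein amount, phosphorylation and inhibitor binding, which RNA levels do not show.

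Promoter windows of 300 bases, from 250 before to 50 after an annotated start, were read from RefSeq on GRCh38.p14, which held 9 windows for 6 of the 10 genes. CCND1, CCND2, CCNE2 and CDK2 had no entry. The 3 windows below were picked because they held a match to the E2F motif or the E-box, so their matches are no independent result. The 5 libraries with the lowest summed replication genes, described below, held all 5 lowest for CDK4, 4 of the 5 lowest for E2F1 and 2 for CDK6. Among genes whose windows are not printed, they held 3 for RB1, 2 for CCNE1 and 1 for CCND3. CDK2, for which they held all 5, has no window. Motifs were not tested against these levels. The printed windows are all on the minus strand and are given 5′ to 3′ along the gene. They lie at chr20:33686336-33686635 for E2F1, chr12:57752261-57752560 for CDK4 and chr7:92836524-92836823 for the upstream start of CDK6. Capitals mark matches to the E2F motif in E2F1, searched on either strand as TTTNNCGC with N for any base. Such matches need not meet a stricter form of that motif. In CDK4 and CDK6 they mark the E-box CACGTG, which reads the same on both strands.
E2F1: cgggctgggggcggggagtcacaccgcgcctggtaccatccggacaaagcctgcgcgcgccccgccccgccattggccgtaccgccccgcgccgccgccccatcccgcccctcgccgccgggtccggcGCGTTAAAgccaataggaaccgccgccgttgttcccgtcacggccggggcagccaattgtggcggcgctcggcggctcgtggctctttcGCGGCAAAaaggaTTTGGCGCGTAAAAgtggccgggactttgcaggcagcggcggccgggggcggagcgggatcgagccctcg
CDK4: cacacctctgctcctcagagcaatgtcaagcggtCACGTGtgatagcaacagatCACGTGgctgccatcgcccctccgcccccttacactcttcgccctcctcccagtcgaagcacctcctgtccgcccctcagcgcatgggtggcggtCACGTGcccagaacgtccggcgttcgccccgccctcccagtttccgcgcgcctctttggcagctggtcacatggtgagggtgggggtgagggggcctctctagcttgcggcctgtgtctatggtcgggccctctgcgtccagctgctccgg
CDK6: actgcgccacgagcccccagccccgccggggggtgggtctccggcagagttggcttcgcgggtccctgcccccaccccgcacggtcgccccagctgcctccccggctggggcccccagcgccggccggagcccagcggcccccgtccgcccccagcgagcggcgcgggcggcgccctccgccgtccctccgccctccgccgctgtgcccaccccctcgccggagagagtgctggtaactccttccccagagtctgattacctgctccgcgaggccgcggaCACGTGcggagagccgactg

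The E2F1 window held 4 matches to TTTNNCGC, beginning at positions 129, 218, 231 and 237 from its 5′ end, of which the matches at 231 and 237 overlap. None of the other 8 windows of these genes held that motif, and 6.89% of the 35116 windows in the RefSeq table did. CDK4 held 3 E-boxes, at positions 35, 55 and 150, and the upstream CDK6 window held 1, at position 281, against 7.26% of all windows with at least 1. The AP-1 motif TGANTCA was found once, in the RB1 window, which belongs to an internal start of that gene, and in 7.71% of all windows. A match is a description of these letters and says nothing of binding.

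Library totals were 46129559 to 78976917 counts. NF1 itself followed the labels, at 115 to 159 CPM (counts per 1000000 counts of the library) in the 6 unedited libraries and 26.0 to 51.3 CPM in the 9 edited libraries, and the mean of the edited genotypes stood -2.01 on the log2 scale (SE 0.0560) from the mean of both controls (adjusted p = 4.11e-10 in edgeR). Of the 4 epithelial markers, the keratins KRT18, at 131 to 204 CPM, and KRT8, at 70.2 to 176 CPM, were abundant in all libraries, while CDH1 ranged from 0.019 to 127 CPM and EPCAM from 1.85 to 103 CPM. Of the 4 basal markers, KRT5 read 624.7 to 4997 CPM, while KRT14 ranged from 6.44 to 1147 CPM, KRT17 from 24.1 to 1622 CPM and TP63 from 0.054 to 75.8 CPM, so the defining markers CDH1 and TP63 were near 0 in some libraries. Defining markers of other cells were at or near 0, with PTPRC of leukocytes at most 0.054 CPM, CDH5 of endothelium at most 0.019 CPM and COL3A1 of fibroblasts at most 0.055 CPM. Of the 4 fibroblast markers COL1A1 alone passed 10 CPM, at 2.88 to 20.0 CPM.

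Some libraries stood apart from their genotype. Guide 2 replicate 2 lay at -91.9 on the first principal component, against 46.0 and 47.8 for the other Guide 2 libraries, while its NF1 level of 31.4 CPM was like theirs. It held 91.4 CPM of CDH1, the epithelial adhesion gene E-cadherin, where the other Guide 2 libraries held 0.036 and 0.043 CPM, and its 4 basal markers summed to 7841 CPM against 778 and 856 CPM. Parental replicate 2 lay at 25.2 on that component, against -47.2 and -23.4 for the other Parental libraries, and held 1.79 CPM of CDH1 against 42.9 and 37.8 CPM and 0.815 CPM of TP63, a basal transcription factor, against 37.4 and 19.9 CPM. Guide 1 replicate 3 differed from its group in the cell cycle, with 17 replication genes driven by E2F summing to 3483 CPM against 2178 and 2104 CPM. Each result below is given with all 15 libraries. The main counts for the G1/S genes and the lists are also given without Guide 2 replicate 2, and some without the other libraries.

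With all libraries in the fit, 1 of the 10 genes passed an adjusted p of 0.05 in any of 12 tests, which were a test among the 5 genotypes, the edited against the unedited mean, and the 10 pairs of genotypes. That gene was CCND3, in Parental against Empty vector, where 4.37% of all tested genes passed. Without Parental replicate 2, 0 of 10 passed in any of the 12 tests, and 0.809% of all genes passed in that pair. Among the 5 genotypes 0 of 10 passed in edgeR, where 4.30% of all genes did. There 2 had an unadjusted p under 0.05 beside 22.1% of all genes, DESeq2 called 1 beside 13.0%, and voom with sample quality weights called 10 beside 68.0%. For the edited against the unedited mean 0 of 10 passed in edgeR beside 1.51% of all genes. There 2 had an unadjusted p under 0.05 beside 15.8%, DESeq2 called 0 beside 4.25%, and voom called 6 beside 42.0%. The fit without Guide 2 replicate 2 called 4 of 10 among the genotypes, beside 23.7% of all genes, and 3 of 10 for the edited mean, beside 18.0%. That library was the lowest of all 15 for CCND1 and the highest for CCND2 and CDK6. The calls of these 3 genes without it, here and below, thus follow in part from that choice and are descriptions.

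**Figure D1:**
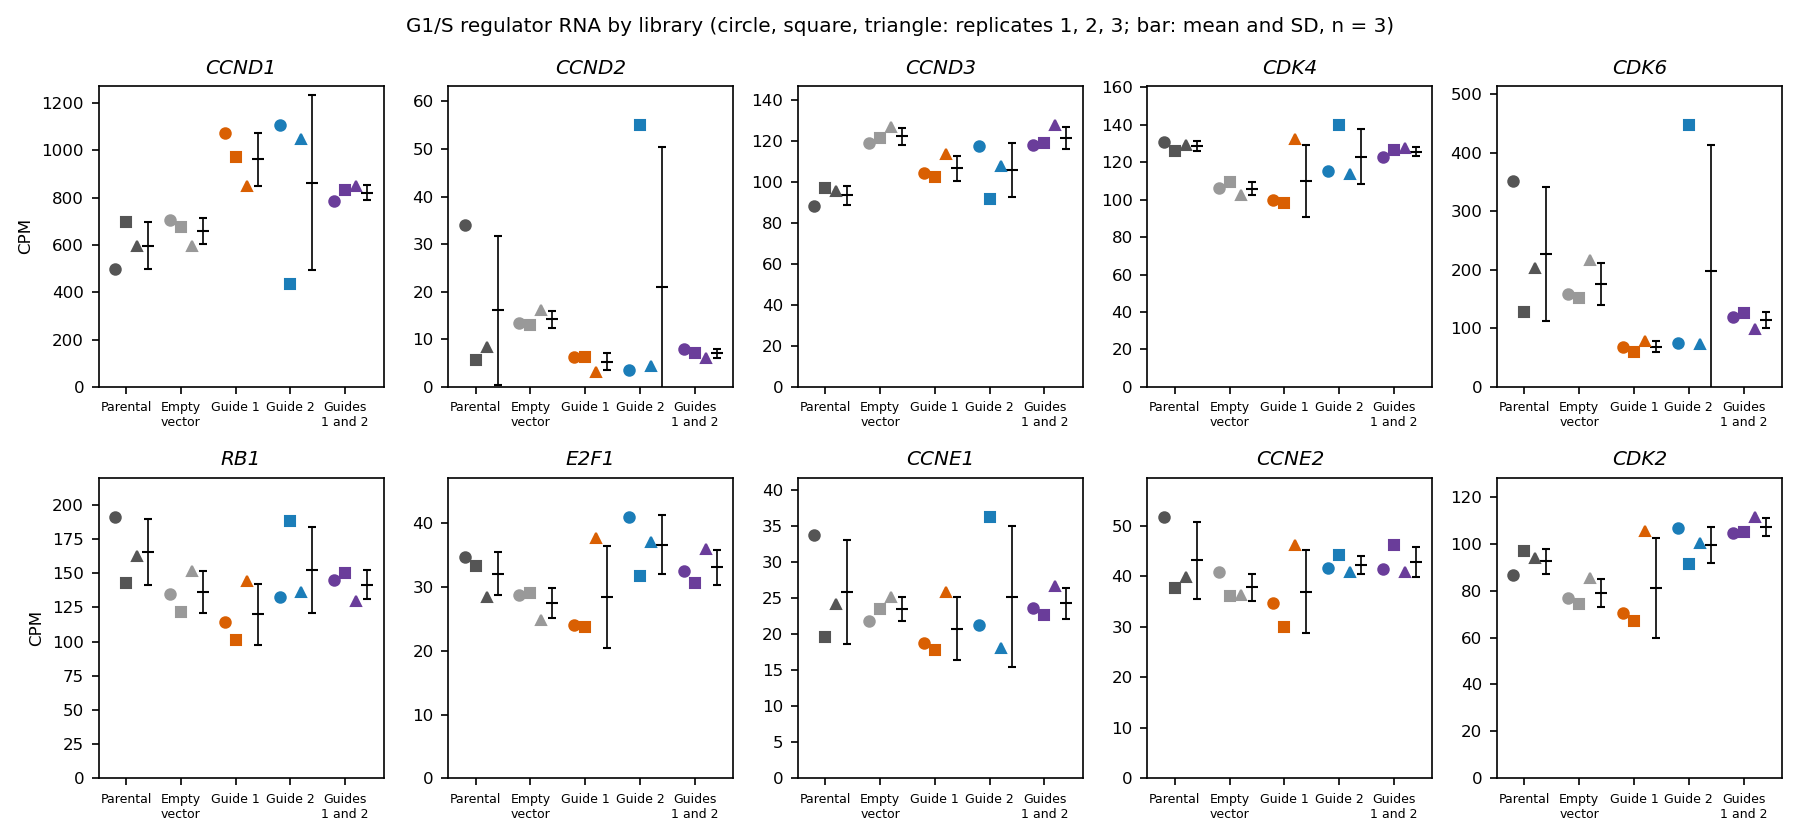
Deposited CPM (y axis, from 0) of the 10 genes in each library, by genotype on the x axis; circles, squares and triangles are replicates 1, 2 and 3, and bars show the mean and SD (n = 3), cut at the lower edge where the SD exceeds the mean. Guide 2 replicate 2 lies far from the other Guide 2 libraries for CCND1, CCND2 and CDK6, and Guide 1 replicate 3 lies above the other Guide 1 libraries for CDK2, CDK4 and E2F1.

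CCND1, the main D-type cyclin of breast epithelium and a known target of MAPK signalling, was the most abundant of the 10 genes. Per kilobase of exon its mean level was 162 CPM, followed by CDK4 at 37.4, CDK2 at 23.6, RB1 at 22.2, CCND3 at 19.0, CDK6 at 12.8, E2F1 at 12.6, CCNE1 at 9.40, CCNE2 at 9.24 and CCND2 at 1.77 CPM per kilobase. Exon length was the union of all annotated exons of a gene. That union can be longer than the transcripts present, so this order and all shares per kilobase depend on it. On that scale CCND1 supplied 79.4% to 92.2% of the summed D-type cyclin RNA in every library. The lowest share was that of Guide 2 replicate 2.

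CCND1 read 499, 699 and 596 CPM in Parental replicates 1, 2 and 3, and 707, 675 and 597 CPM in the Empty vector libraries. It read 1073, 970 and 848 CPM in Guide 1, 1107, 437 and 1049 CPM in Guide 2, and 785, 833 and 848 CPM in Guide 1 and 2. Of the 9 edited libraries, 8 lay above all 6 unedited ones, and Guide 2 replicate 2 lay below all of them. The order of the genotype means was Guide 1, Guide 2, Guide 1 and 2, Empty vector and Parental, and only the ranges of Guide 1 and 2 and of Empty vector were separate among neighbours in it.

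The log2 fold change of CCND1 between the edited and unedited means was 0.49 (SE 0.169, 95% interval 0.13 to 0.86), which did not pass (edgeR adjusted p = 0.169). Without Guide 2 replicate 2 it was 0.59 (SE 0.0776), from 629 to 939 CPM, and passed (edgeR adjusted p = 0.000357). In that fit CCND1 rose against Empty vector by 0.53 (SE 0.115) in Guide 1 and by 0.68 (SE 0.127) in Guide 2, and against Parental by 0.71 in Guide 1, 0.87 in Guide 2 and 0.47 in Guide 1 and 2, all on the log2 scale. Guide 1 and 2 against Empty vector did not pass in either fit, with 0.30 (SE 0.258) on all libraries.

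CCND2, a D-type cyclin of low level in these cells, read 34.1, 5.58 and 8.46 CPM in Parental, 13.3, 13.0 and 16.2 CPM in Empty vector, and 6.22, 6.31 and 3.16 CPM in Guide 1. It read 3.60, 55.0 and 4.29 CPM in Guide 2, and 7.96, 7.20 and 6.02 CPM in Guide 1 and 2. The highest library exceeded the lowest 17.4-fold, and the spread within genotypes, an SD of 1.19 on the log2 scale, was wider than in 98.8% of tested genes. Its edited against unedited log2 fold change was -0.72 (SE 0.555, edgeR adjusted p = 0.574) with all libraries and -1.53 (SE 0.333, edgeR adjusted p = 0.00714) without Guide 2 replicate 2. Without Parental replicate 1, the highest unedited library, it was -0.11 (SE 0.541, edgeR adjusted p = 0.961). Parental replicates 2 and 3 lay within or near the range of the other 8 edited libraries.

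CCND3, the D-type cyclin with the steadiest level, read 88.4, 97.1 and 95.6 CPM in Parental and 119, 122 and 127 CPM in Empty vector. In the edited genotypes it read 104, 102 and 114 CPM in Guide 1, 118, 91.7 and 108 CPM in Guide 2, and 118, 119 and 128 CPM in Guide 1 and 2. Both controls were separate, and the edited libraries lay between or beside them. Parental was lower than Empty vector at a log2 difference of -0.42 (SE 0.0897, 95% interval -0.61 to -0.23, adjusted p = 0.0221 in edgeR), a fold of 0.747. Leaving out any 1 of these 6 libraries ended the call, with adjusted p between 0.0529 and 0.0936 and the log2 fold change between -0.456 and -0.374. The difference between controls was larger than the edited against unedited difference, which was 0.05 (SE 0.0578, 95% interval -0.07 to 0.18); the 2 differences were not tested against each other.

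CCND3 also had the largest share of its variance between genotypes among the 10 genes, 74.5%, against 39.8% for the median tested gene, and a within-genotype SD of 0.11 on the log2 scale against a median of 0.25. In the fit without Guide 2 replicate 2, where 13.9% of genes passed in Parental against Empty vector, CCND3 was again the 1 gene of the 10 to pass there. It then also passed as higher than Parental in Guide 1, by 0.21, Guide 2, by 0.29, and Guide 1 and 2, by 0.39, and as lower than Empty vector in Guide 1, at -0.22, on the log2 scale. Its direction thus depended on which control was used.

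CDK6, a kinase that pairs with D-type cyclins, had the second widest spread of the 10. It read 352, 128 and 203 CPM in Parental, 158, 152 and 216 CPM in Empty vector, and 68.6, 58.8 and 77.6 CPM in Guide 1. Guide 2 held 74.8, 447 and 73.9 CPM, and Guide 1 and 2 held 119, 126 and 99.6 CPM. Again 8 edited libraries lay on 1 side, all below the lowest unedited library, and Guide 2 replicate 2 was the highest of all 15. The ranges of Empty vector and Guide 1 and 2 were separate, as were those of Guide 1 and 2 and Guide 1, and the other neighbours in the order Parental, Guide 2, Empty vector, Guide 1 and 2, Guide 1 overlapped.

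With all libraries the log2 fold change of CDK6 between edited and unedited means was -0.79 (SE 0.360, 95% interval -1.57 to -0.01, edgeR adjusted p = 0.307). Without Guide 2 replicate 2 it was -1.27 (SE 0.178, edgeR adjusted p = 0.000537), from 201 to 87.3 CPM. In that fit CDK6 fell against Empty vector by 1.39 in Guide 1 and by 1.27 in Guide 2, and against Parental by 1.72 in Guide 1 and by 1.60 in Guide 2, on the log2 scale. For Guide 2 against Empty vector this reversed the sign of the value with all libraries, 0.15 (SE 0.564). Guide 1 and 2 against Empty vector was -0.64 (SE 0.566) with all libraries and did not pass in either fit.

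CDK4, the other kinase of the D-type cyclins, had the narrowest range of the 10 genes, with a highest library 1.43 times the lowest. It read 131, 126 and 129 CPM in Parental, 106, 109 and 102 CPM in Empty vector, 99.7, 98.0 and 132 CPM in Guide 1, 115, 140 and 114 CPM in Guide 2, and 123, 127 and 128 CPM in Guide 1 and 2. Empty vector and the first pair of Guide 1 libraries were the low ones. Per kilobase, CDK6 made up 13.2% of the sum of both kinases in its lowest library, Guide 1 replicate 3, and 45.3% in its highest, Guide 2 replicate 2. The edited against unedited log2 fold change of CDK4 was 0.03 (95% interval -0.11 to 0.18).

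The libraries in which CDK6 was low were those in which CDH1 was lowest. CDH1 was at or below 0.158 CPM in all Guide 1 libraries and in Guide 2 replicates 1 and 3, and 1.79 CPM or higher in the other 10. Those 5 libraries were the 5 lowest for CDK6 and the 5 highest for CCND1, and they included 4 of the 5 lowest for CCNE1 and 3 of the 5 lowest for CCND2 and for RB1. Within the unedited cells, Parental replicate 2 had the lowest CDH1, 1.79 CPM, and the lowest CDK6, and its CCND1 was second to Empty vector replicate 1. The basal markers summed to 655 to 1048 CPM in Guide 1, 778, 7841 and 856 CPM in Guide 2, 1158 to 1352 CPM in Guide 1 and 2, 2753 to 4072 CPM in Empty vector and 993 to 4259 CPM in Parental. Those 5 libraries were not the 5 lowest for this sum, since Parental replicate 2, at 993 CPM, lay below Guide 1 replicate 2, at 1048 CPM. The part of these markers in the CDK6 and CCND1 results was not tested.

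**Figure D2:**
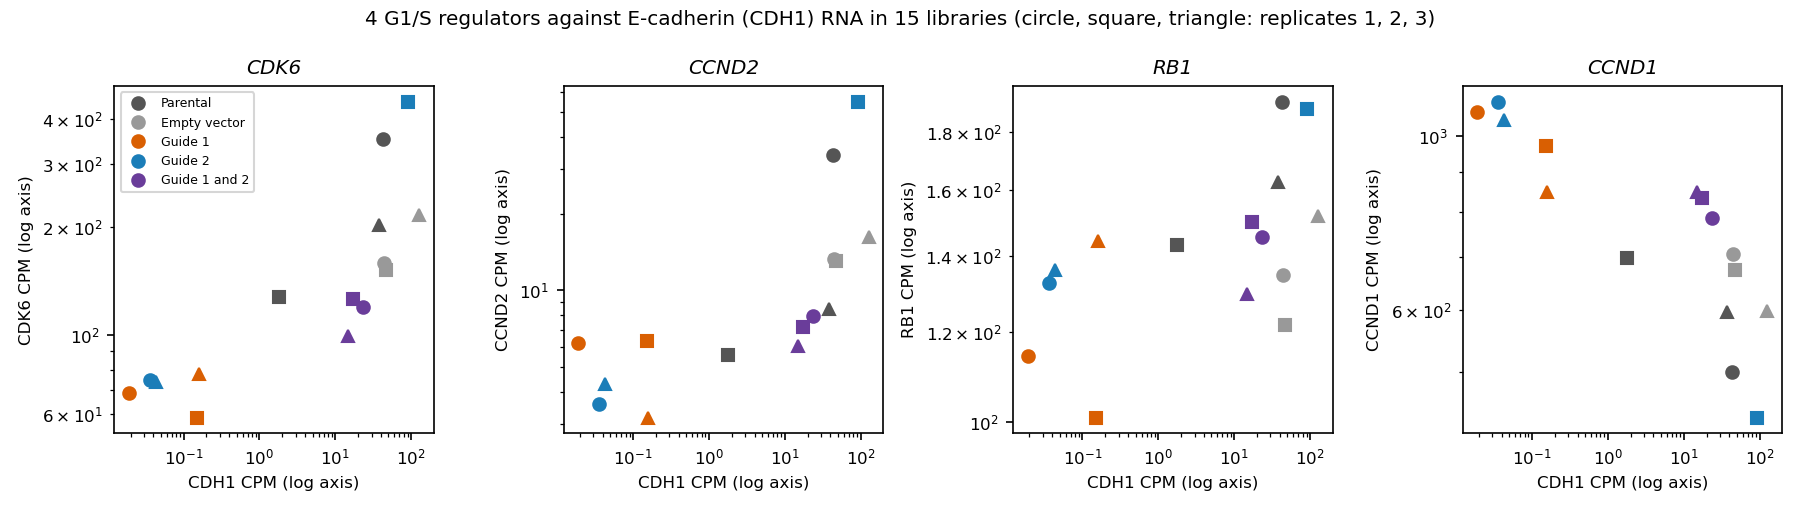
CPM of CDK6, CCND2, RB1 and CCND1 (y axes, log) against CPM of CDH1 (x axis, log) in 15 libraries, coloured by genotype, with circles, squares and triangles for replicates 1, 2 and 3. The 5 libraries with CDH1 at or below 0.158 CPM are the lowest for CDK6 and the highest for CCND1, and Guide 2 replicate 2 sits among the unedited libraries or beyond them.

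Counted by ranges, 0 of the 10 genes separated the 9 edited from the 6 unedited libraries, where 0.281% of all tested genes did. Without Guide 2 replicate 2, a choice made after seeing the data, CCND1 was higher in all 8 edited libraries and CDK6 lower in all 8, so 2 of 10 did not overlap beside 1.64% of all genes. The comparison of the fitted differences for all 10 genes shows the same contrast between these 2 fits.

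**Figure D3:**
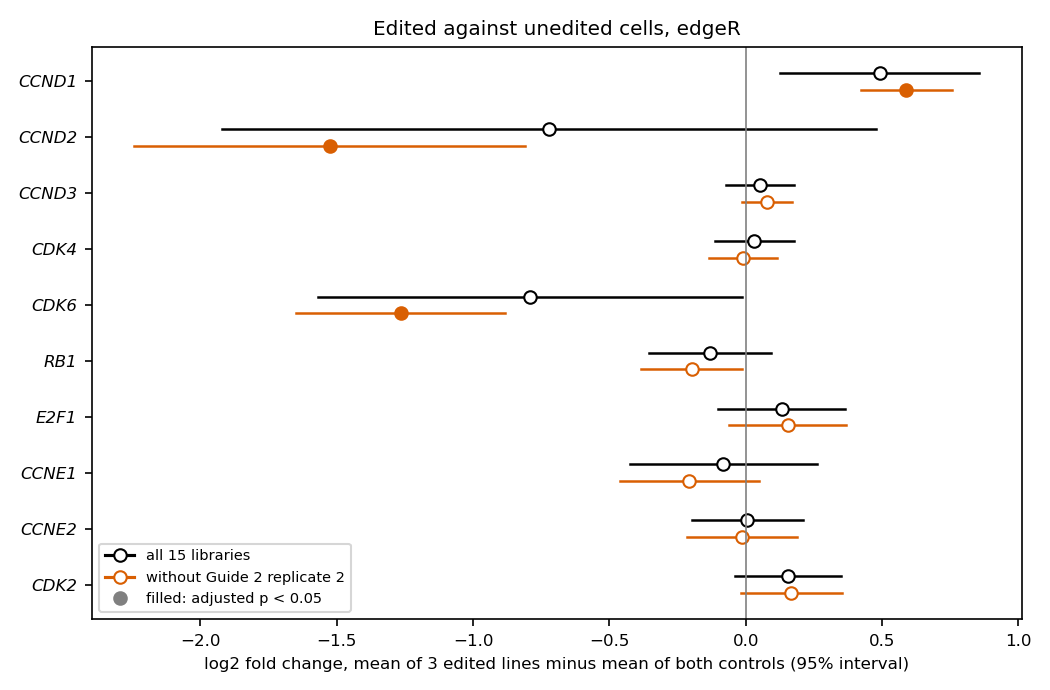
Log2 fold change (x axis) of each gene between the mean of the 3 edited genotypes and the mean of both controls, with 95% intervals, in edgeR with all 15 libraries (black) and without Guide 2 replicate 2 (orange); filled points passed an adjusted p of 0.05. CCND1, CCND2 and CDK6 passed without that library, and none of the 10 passed with it.

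RB1, the pocket protein that holds E2F factors inactive, read 191, 143 and 163 CPM in Parental, 135, 122 and 152 CPM in Empty vector and 114, 101 and 144 CPM in Guide 1. It read 133, 189 and 136 CPM in Guide 2 and 145, 150 and 130 CPM in Guide 1 and 2. All neighbours in the order of genotype means overlapped. The edited against unedited log2 fold change was -0.13 (SE 0.103, 95% interval -0.35 to 0.09). RB1 passed in 1 pair without Guide 2 replicate 2, as 0.45 lower on the log2 scale in Guide 1 than in Parental (SE 0.129, edgeR adjusted p = 0.0378).

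E2F1, the E2F factor that activates replication genes and its own promoter, read 34.6, 33.4 and 28.4 CPM in Parental and 28.7, 29.1 and 24.8 CPM in Empty vector. Guide 1 held 24.1, 23.7 and 37.7 CPM, Guide 2 held 41.0, 31.8 and 37.1 CPM, and Guide 1 and 2 held 32.5, 30.7 and 36.0 CPM. All Guide 2 libraries and all Guide 1 and 2 libraries lay above all Empty vector libraries, and Parental overlapped Empty vector. The log2 fold change against Empty vector was 0.40 (SE 0.165, 95% interval 0.04 to 0.76, edgeR adjusted p = 0.208) in Guide 2, 0.24 (SE 0.165) in Guide 1 and 2 and 0.04 (SE 0.165) in Guide 1. These 3 comparisons share the Empty vector libraries.

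CDK2, the kinase of the E-type cyclins, read 86.6, 96.9 and 93.9 CPM in Parental, 77.0, 74.2 and 85.6 CPM in Empty vector, and 70.4, 67.2 and 106 CPM in Guide 1. It read 107, 91.6 and 100 CPM in Guide 2 and 105, 105 and 112 CPM in Guide 1 and 2. Each of Guide 2, Guide 1 and 2 and Parental lay wholly above Empty vector. The largest fitted difference from Empty vector was in Guide 1 and 2, 0.42 on the log2 scale (SE 0.139, 95% interval 0.12 to 0.72), which did not pass over all genes (adjusted p = 0.180 in edgeR).

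CCNE1 and CCNE2 encode the E-type cyclins, which E2F factors induce at the end of G1. CCNE1 read 33.9, 19.6 and 24.2 CPM in Parental, 21.9, 23.6 and 25.1 CPM in Empty vector, 18.7, 17.8 and 25.9 CPM in Guide 1, 21.3, 36.3 and 18.1 CPM in Guide 2, and 23.6, 22.6 and 26.8 CPM in Guide 1 and 2. CCNE2 read 51.8, 37.7 and 40.0 CPM in Parental, 40.9, 36.2 and 36.4 CPM in Empty vector, 34.8, 30.1 and 46.2 CPM in Guide 1, 41.6, 44.2 and 40.9 CPM in Guide 2, and 41.4, 46.2 and 40.9 CPM in Guide 1 and 2. No pair of neighbouring genotypes was separate for either gene. The edited against unedited log2 fold change was -0.08 (95% interval -0.42 to 0.26) for CCNE1 and 0.01 (95% interval -0.20 to 0.21) for CCNE2, so changes larger than these bounds fall outside the intervals.

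Leaving out Guide 1 replicate 3 brought CDK2, CDK4 and E2F1 past the threshold, with CCND3, so that 4 of 10 passed among the genotypes beside 9.94% of all genes. That library was singled out by its high sum of replication genes, and CDK2, CDK4 and E2F1 were high in it too. These calls thus follow in part from that choice and are descriptions. Guide 1 was then represented by replicates 1 and 2 alone. The other Guide 1 libraries then stood at 23.9 CPM of E2F1, 68.8 CPM of CDK2 and 98.8 CPM of CDK4 on average. In Guide 1 against Guide 2, where 3.31% of all genes passed, E2F1 was lower by -0.60 (SE 0.129, edgeR adjusted p = 0.0259) and CDK2 by -0.52 (SE 0.0873, edgeR adjusted p = 0.00744) on the log2 scale. Guide 1 and 2 exceeded Guide 1, where 4.61% passed, by 0.62 for CDK2 and 0.33 for CDK4. In Guide 1 against Parental, where 7.64% passed, CDK2 stood at -0.40 and CDK4 at -0.36. In that fit the log2 difference of CDK2 from Empty vector was 0.32 in Guide 2 and 0.43 in Guide 1 and 2. CDK2 passed in both, but the share of all genes that passed is not given for these comparisons, so no weight is put on these calls. With all libraries, Guide 1 against Guide 2 was -0.36 (SE 0.165) for E2F1 and -0.30 (SE 0.139) for CDK2, and neither passed. With both libraries that stood apart left out, 8 of 10 passed among the genotypes, all but CCNE1 and CCNE2, beside 40.1% of all genes.

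The 17 replication genes driven by E2F, which include the MCM helicase subunits, PCNA and RRM1, separated the same libraries. Their summed level was 2374 to 2499 CPM in Empty vector and 2178 and 2104 CPM in Guide 1 replicates 1 and 2, and 3040 to 3520 CPM in the other 10 libraries, Guide 1 replicate 3 among them. The 5 libraries with the lowest sums were the 5 lowest for CDK2 and for CDK4, and held 4 of the 5 lowest for E2F1 and for CCNE2, but 2 of the 5 lowest for CCNE1, CDK6 and CCND1. The 10 mitotic markers split in the same way, at 1961 to 2554 CPM in those 5 libraries and 3250 to 4211 CPM in the others. In bulk RNA, fewer cycling cells and less RNA per cycling cell cannot be told apart, and the part of cell cycle activity in the CDK2, CDK4 and E2F1 values was not tested.

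**Figure D4:**
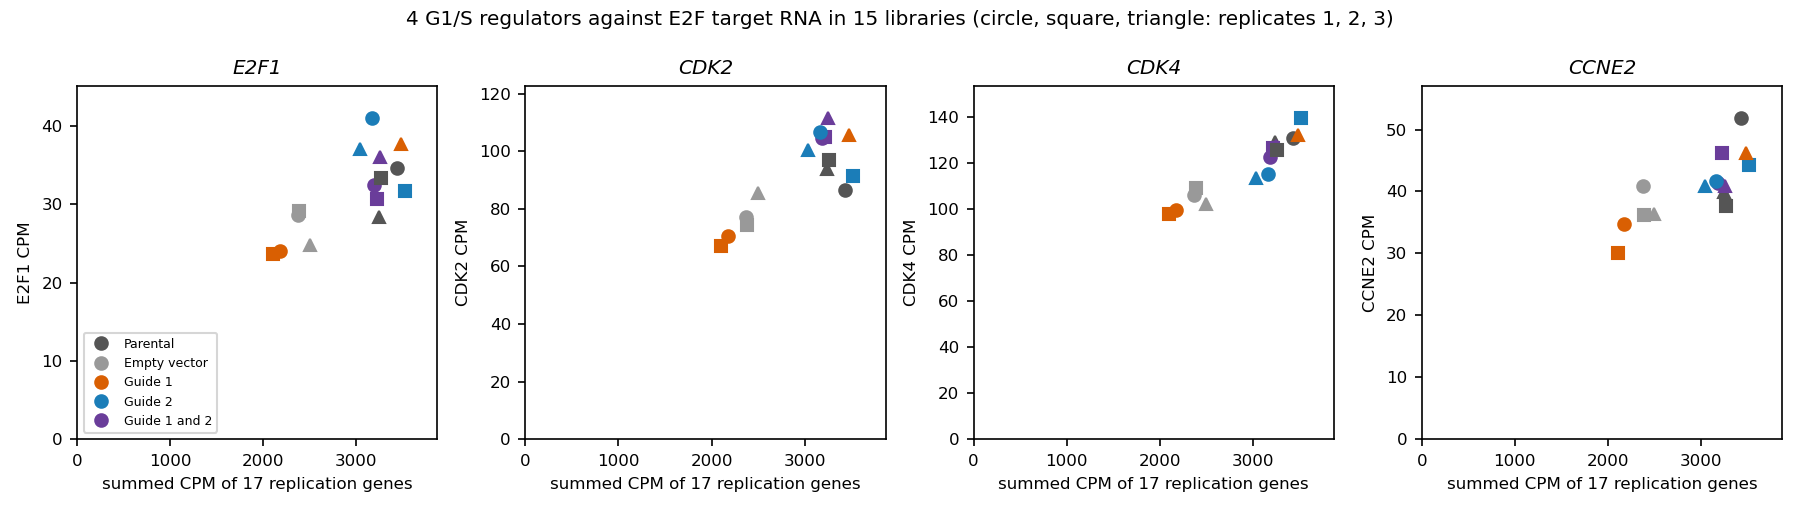
CPM of E2F1, CDK2, CDK4 and CCNE2 (y axes, from 0) against the summed CPM of 17 replication genes driven by E2F (x axis, from 0) in 15 libraries, coloured by genotype, with circles, squares and triangles for replicates 1, 2 and 3. The 3 Empty vector libraries and Guide 1 replicates 1 and 2 form the low group for the sum, CDK2 and CDK4, and Guide 1 replicate 3 lies with the other 9.

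With all libraries, single replication genes passed in few comparisons. Against Empty vector, CDC45, a helicase cofactor, rose in Guide 2, by 0.48 (SE 0.105, edgeR adjusted p = 0.0242), and in Guide 1 and 2, by 0.49 (SE 0.105, edgeR adjusted p = 0.0472), on the log2 scale. It was 1 of 2 genes of the 17 to pass in Guide 2, beside 3.94% of all genes, and the 1 gene to pass in Guide 1 and 2, beside 0.962%. The Guide 2 call ended when any of 4 of the 15 libraries was left out (Empty vector replicates 2 and 3, Guide 2 replicates 1 and 3), with edgeR adjusted p up to 0.131, and the call in Guide 1 and 2 ended for 12 of 15, with edgeR adjusted p up to 0.229. All 17 had positive log2 fold changes in each, with medians of 0.38 and 0.36 against 0.03 and -0.0011 over all tested genes. Parental against Empty vector also gave 17 positive values, with a median of 0.44 against 0.01, and 0 passed in edgeR. Unadjusted p-values were under 0.05 for 10, beside 19.8% of all genes, with 4 by DESeq2 beside 8.13% and 15 by voom beside 36.3%. The edgeR fit without Guide 2 replicate 2 called 7 of the 17 there, beside 13.9% of all genes. Against Empty vector it called 4 in Guide 2, beside 14.5%, and 2 in Guide 1 and 2, beside 6.70%. These comparisons share the Empty vector libraries, and Parental cells carry no NF1 guide.

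Among 10 mitotic markers, UBE2C and CDK1 passed among the 5 genotypes (edgeR adjusted p = 0.0360 and 0.0494), beside 4.30% of all genes. Leaving out 1 library ended the UBE2C call for 12 of the 15, with adjusted p up to 0.119 in edgeR, and the CDK1 call for 13 of the 15, up to 0.167. Both calls remained without Guide 2 replicate 2 and without Guide 1 replicate 3, and that of UBE2C also without Guide 2 replicate 3. UBE2C, a ubiquitin enzyme of mitotic exit, read 65.0 to 74.6 CPM in Empty vector, 120 to 128 CPM in Parental, 116 to 165 CPM in Guide 2 and 112 to 116 CPM in Guide 1 and 2. It read 64.2, 63.4 and 114 CPM in Guide 1. CDK1, the mitotic kinase, read 130 to 154 CPM in Empty vector and 206 to 272 CPM in Parental, Guide 2 and Guide 1 and 2. In Guide 1 it read 142, 131 and 240 CPM, so replicates 1 and 2 lay at the Empty vector level. Against Empty vector 3 of the 10 passed as higher in Guide 2, beside 3.94% of all genes, and 4 in Parental, beside 4.37%. The fit without Guide 2 replicate 2 called 5 of the 10 among the genotypes, beside 23.7% of all genes. It called 8 in Parental against Empty vector, beside 13.9%.

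CDK inhibitors bind the cyclin kinases and hold them inactive. Of the 7 on the list 5 were tested, since CDKN2A and CDKN2B, whose shared locus MCF-10A cells are known to lack, had 0 counts in every library, which allows at most 0.038 to 0.065 CPM in each for counting error alone. CDKN2D, an inhibitor of CDK4 and CDK6, passed among the genotypes (edgeR adjusted p = 0.0354) and was higher in Guide 2, at 6.09 to 7.57 CPM, than in Empty vector, at 3.66 to 4.25 CPM, with a log2 difference of 0.82 (SE 0.159, adjusted p = 0.0153 in edgeR). Parental, at 4.88 to 7.22 CPM, and Guide 1 and 2, at 6.02 to 6.83 CPM, also lay wholly above Empty vector. With 1 library left out, its call among the genotypes ended for 10 of the 15, with edgeR adjusted p up to 0.13, and that of Guide 2 against Empty vector for 4, with edgeR adjusted p up to 0.0821. CDKN1B, the inhibitor p27, also passed among the genotypes (edgeR adjusted p = 0.0364), and was higher in Parental, at 41.9 to 45.4 CPM, than in Empty vector, at 29.1 to 32.9 CPM, by 0.45 (SE 0.0944, edgeR adjusted p = 0.0206). Its call among the genotypes ended for 13 of the 15 libraries left out in turn, with edgeR adjusted p up to 0.133 without Parental replicate 2, and that of Parental against Empty vector for any 1 of these 6 libraries, up to 0.102. With all libraries, 2 of the 5 tested inhibitors passed among the genotypes beside 4.30% of all genes, and 1 in Guide 2 against Empty vector beside 3.94%. In Parental against Empty vector 2 passed beside 4.37%, CDKN1B and CDKN1A, the latter described below. In the edgeR fit without Guide 2 replicate 2, all 5 tested inhibitors passed among the genotypes, beside 23.7% of all genes.

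CDKN1A, the inhibitor p21, was singled out after its values were seen. It read 255 to 269 CPM in Empty vector and 109 to 130 CPM in Parental, lower in Parental at a log2 difference of -1.20 (SE 0.277, adjusted p = 0.0304 in edgeR). In Guide 1 it read 325, 327 and 168 CPM, in Guide 2 it read 193, 90.0 and 200 CPM, and in Guide 1 and 2 it read 176, 182 and 186 CPM. Leaving out any 1 of the 6 Parental and Empty vector libraries ended the call, with edgeR adjusted p up to 0.0985. The 5 libraries low in CDK2 and CDK4 were the 5 highest for CDKN1A.

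The 15 other pocket proteins, E2F factors and DREAM complex partners gave 0 calls in edgeR in each of the 12 tests. Among the genotypes 5 had an unadjusted p under 0.05, DESeq2 called 2 and voom called 12, beside 22.1%, 13.0% and 68.0% of all genes. These 0 calls depended on 1 library. The edgeR fit without Guide 2 replicate 2 called 4 of the 15 among the genotypes, beside 23.7% of all genes. It called 3 in Parental against Empty vector, beside 13.9%. Of 12 activators and turnover factors of G1 cyclins, 1 passed in edgeR in any test with all libraries, CKS1B, named for being the single call. It passed in Parental against Empty vector, where 4.37% of all genes did. CKS1B is a CDK-binding subunit that works with SKP2. It was higher in Parental, at 113 to 126 CPM, than in Empty vector, at 67.9 to 76.8 CPM, with a log2 difference of 0.73 (SE 0.184, adjusted p = 0.0431 in edgeR). The call ended for 11 of the 15 libraries left out in turn, with edgeR adjusted p up to 0.158. Of these 12 genes, 3 passed among the genotypes in the fit without Guide 2 replicate 2, beside 23.7% of all genes.

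Single genotypes against the controls gave 0 calls among the 10 genes in edgeR with all libraries. Beside this, 5.88% of all genes passed in Guide 1 against Empty vector, 3.94% in Guide 2 and 0.962% in Guide 1 and 2. At an unadjusted p under 0.05 the counts were 2, 3 and 2 of 10, beside 14.0% to 21.4% of all genes, with 0 by DESeq2 in each beside 4.22% to 9.47%, and 7, 5 and 5 by voom beside 42.5%, 33.2% and 26.7%. Against Parental 0 of the 10 passed, beside 0.149% of all genes in Guide 1, 0.0516% in Guide 2 and 0.195% in Guide 1 and 2. Unadjusted p-values under 0.05 numbered 4, 1 and 1 of 10 beside 7.37% to 19.9% of all genes, with 0, 0 and 1 by DESeq2 beside 0.632% to 3.19%, and 9, 6 and 4 by voom beside 52.9%, 32.5% and 21.3%. Between edited genotypes the shares of all genes were 0.0401% for Guide 1 against Guide 2, 0.275% for Guide 1 and 2 against Guide 1, and 0.149% for Guide 1 and 2 against Guide 2. The 10 genes gave 0 calls in each, with 3, 1 and 0 at an unadjusted p under 0.05 beside 5.80% to 15.2% of all genes, 0 by DESeq2 beside 0.663% to 1.97%, and 5, 9 and 3 by voom beside 20.2%, 46.5% and 15.2%.

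Without Guide 2 replicate 2, the counts against Empty vector were 3 of 10 in Guide 1 beside 18.1% of all genes, 2 of 10 in Guide 2 beside 14.5%, and 0 of 10 in Guide 1 and 2 beside 6.70%. Against Parental they were 4 of 10 in Guide 1 beside 14.5%, 3 of 10 in Guide 2 beside 5.96%, and 2 of 10 in Guide 1 and 2 beside 2.62%. Guide 2 was then represented by 2 libraries.

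Ranges that did not overlap were common among all genes, so the counts for single genotypes say little. Against Empty vector, 4 of 10 genes did not overlap in Guide 1 beside 36.2% of all genes, 4 of 10 in Guide 2 beside 23.1%, 6 of 10 in Guide 1 and 2 beside 37.7%, and 3 of 10 in Parental beside 32.1%. Against Parental the counts were 3 of 10 in Guide 1 beside 24.0%, 0 of 10 in Guide 2 beside 9.38%, and 4 of 10 in Guide 1 and 2 beside 23.1%. CCND1 was higher and CDK6 lower than either control in all libraries of Guide 1 and of Guide 1 and 2.

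For the 3 genes with the smallest adjusted p among genotypes, the genes of most similar pattern were sought by Pearson's r of log2 CPM over 15 libraries, among 11731 genes. They were LCMT2, ARF3 and PEF1 for CCND3, at r of 0.959, 0.956 and 0.955. For CDK2 they were PSMC3IP, FANCC and NCAPH2, at 0.969, 0.961 and 0.955, and for CDK6 they were TET3, LRP4 and SLC7A5, at 0.988, 0.979 and 0.977. These libraries share genotypes and the outlying library, so the values are descriptions.

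On GRCh38 with GENCODE release 29, the genes lie at 11:69641087-69654474 (CCND1), 12:4273772-4305350 (CCND2), 6:41934933-42050357 (CCND3), 12:57747727-57756013 (CDK4), 7:92604921-92836594 (CDK6), 13:48303726-48599436 (RB1), 20:33675683-33686404 (E2F1), 19:29811898-29824308 (CCNE1), 8:94879770-94896678 (CCNE2) and 12:55966769-55972784 (CDK2). Exons of genes on the opposite strand cover 43.2% of the exon bases of CDK4, by TSPAN31, 37.1% of those of CCNE2, by INTS8, and 10.3% of those of CCND1, by LTO1. Mean levels of these neighbours were 23.2, 64.1 and 19.4 CPM. AC025162.1, also on the opposite strand, covers 14.5% of the exon bases of CDK2, at a mean of 0.195 CPM. AC008012.1, on the same strand, covers 13.8% of those of CCND2, at a mean of 0.0 CPM, and use of strand would not separate that pair. Whether strand was used in counting is not given in the sources used here, so reads of CCNE2 and INTS8, or of CDK4 and TSPAN31, may not be fully separated.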

How the data were processed

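Per the file headers and values, the authors deposited 2 tables with 1 column for each of the 15 libraries, raw read counts per gene and CPM (counts per 1000000 counts of the library). The deposited CPM match the counts scaled by the library total to within 4.91e-11. Per the submitters' processing notes, reads were processed with Trim Galore 0.6.0 and STAR 2.7.8a on GRCh38; the counting program, its annotation and its use of strand are not given in the sources used here. Per the labels, RNeasy columns served for RNA and the KAPA mRNA HyperPrep kit for libraries. Symbols were found for 60357 of 60721 identifiers. Positions and exon lengths come from GENCODE release 29.

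Counts were tested with edgeR 4.0.16 in R 4.3.3 by the quasi-likelihood method, after filterByExpr by genotype and TMM scaling (factors 0.9725 to 1.0167), in a group-means model over all 15 libraries with 10 residual degrees of freedom. Two-sided p-values carry a Benjamini-Hochberg adjustment over the 17457 tested genes, with an adjusted p under 0.05 as the threshold. SEs were derived from each log2 fold change and its F statistic, and 95% intervals from the t distribution. Library totals had a median of 55942785 counts. A floor of 3 counts and all counting limits cover counting error only. For principal components and pattern similarity, CPM were put on the log2 scale with 2 as prior count. The procedure was tested on simulated data.

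The genes, the lists and the rules were chosen with earlier results of these data known. Named are the 10 genes, NF1, up to 3 called genes with the smallest adjusted p among genotypes from each list, and for 3 of the 10 genes the 3 genes of most similar pattern; other names are identified as chosen after their values were seen or as the single call of a list. RLE scaling, no filter, a replicate block, DESeq2 1.42.0, voom with sample quality weights in limma 3.58.1, only the compared genotypes, and each library left out were tried as alternatives. Leaving out both libraries of lowest voom weight (0.052 for Guide 2 replicate 2, 0.199 for Guide 1 replicate 3) and the range count without Guide 2 replicate 2 were added after seeing the data.

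Replicate numbers come from the labels. Deviations from genotype means correlated between equal numbers in every pair for Guide 1 against Empty vector, at 0.136 to 0.280, and not in every pair for the other 9 comparisons of genotypes. Replicate libraries differed beyond sampling noise in 24.6% to 76.8% of genes, so none was treated as a duplicate.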

Additional observations from a re-analysis of the deposited data

Results flagged for a closer look

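Dixon's rule for a sample far from the others of its set was applied to each of the 10 genes in the 9 edited and in the 6 unedited libraries, 20 sets in all, of which 6 met it. Chance alone flags about 1 in 20 sets. The 9 edited libraries hold 3 genotypes and the 6 unedited ones hold 2.

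Guide 2 replicate 2 was the far sample in 4 sets. Its CCND1 level of 437 CPM was the lowest of the 9 edited libraries, with the next at 785 CPM. It was the highest of the 9 for CCND2, at 55.0 CPM against 7.96 CPM in the next, for CCNE1, at 36.3 CPM against 26.8 CPM, and for CDK6, at 447 CPM against 126 CPM.

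Parental replicate 1 was the far sample in the other 2 sets, with the highest CCND2 of the 6 unedited libraries, 34.1 CPM against 16.2 CPM in the next, and the highest CCNE2, 51.8 CPM against 40.9 CPM. It was also the highest unedited library for CDK6, at 352 CPM, and for RB1, at 191 CPM, and the lowest for CCND1, at 499 CPM.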

How the results depend on the processing

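With RLE scaling, without the filter and with the replicate block, the number of the 10 genes that passed was as with the chosen settings in all 12 tests; with the replicate block CCND3 in Parental against Empty vector kept its call at -0.42 (edgeR adjusted p = 0.0403), and for Guide 1 against Empty vector, where equal numbers pair the libraries, the count remained 0. DESeq2 called 1 gene among the genotypes, 1 in Guide 1 and 2 against Parental and, unchanged in number, 1 in Parental against Empty vector, beside 13.0%, 1.77% and 8.13% of all genes. Voom with sample quality weights called 10 among the genotypes, 6 for the edited mean, 7, 5, 5 and 6 in Guide 1, Guide 2, Guide 1 and 2 and Parental against Empty vector, 9, 6 and 4 in the edited genotypes against Parental in that order, 5 in Guide 1 against Guide 2, 9 in Guide 1 and 2 against Guide 1 and 3 against Guide 2, beside 68.0% of all genes among the genotypes, 42.0% for the edited mean and 15.2% to 52.9% over the 10 pairs. With only the compared genotypes in the fit, 3 passed in Guide 1, 5 in Guide 1 and 2 and 2 in Parental against Empty vector, 1 in Guide 1 and 2 against Parental and 1 against Guide 1, beside 15.8%, 18.7%, 6.85%, 0.904% and 7.67% of all genes. With Guide 2 replicate 2 and Guide 1 replicate 3 both left out, the counts were 8 among the genotypes, 4 for the edited mean, 3, 5, 2 and 3 against Empty vector in the order above, 7, 4 and 2 against Parental, 2 in Guide 1 against Guide 2 and 6 in Guide 1 and 2 against Guide 1, beside 40.1% of all genes among the genotypes, 25.8% for the edited mean and 2.82% to 32.4% over the 10 pairs. The cause of these moves was not tested.

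Leaving out each library in turn gave 0 to 4 genes among the genotypes, 0 to 3 for the edited mean, 0 to 3, 0 to 2, 0 to 1 and 0 to 1 against Empty vector, 0 to 4, 0 to 3 and 0 to 2 against Parental, 0 to 2 in Guide 1 against Guide 2, 0 to 2 in Guide 1 and 2 against Guide 1 and 0 to 0 against Guide 2. The share of all genes moved too. Among the genotypes it was 2.62% without Parental replicate 2, 9.94% without Guide 1 replicate 3 and 23.7% without Guide 2 replicate 2. For the edited mean it was 1.21% without Parental replicate 2 and 18.0% without Guide 2 replicate 2. In that last fit it was 6.70% to 18.1% against Empty vector and 2.62% to 14.5% against Parental. In Guide 2 against Empty vector, CDK6 reversed from 0.15 to -1.06 with voom, -1.27 without Guide 2 replicate 2 and -1.25 with both libraries left out, over a leave-one-out range of -1.27 to 0.53. CCND2 there reversed from 0.54 to -1.71, -1.87 and -1.85 in the same order of fits, over a range of -1.87 to 1.02. The value of -1.87, without Guide 2 replicate 2, was not called. Other differences called with the opposite sign were CCND2 in Guide 2 against Parental, from 0.38 to -1.08 with voom and -2.02 with both libraries left out, and, with voom, CCND2 in Parental against Empty vector, from 0.15 to -0.63, E2F1 in Guide 1 against Empty vector, from 0.04 to -0.22, and CDK6 in Guide 1 and 2 against Guide 2, from -0.79 to 0.61. Of the 10 genes, CCND2, with as few as 199 counts, is the one whose values depth limits most.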
